A study of Mus musculus with 4 samples.

Results

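Cadherins, claudins, desmosomal cadherins, plakophilins and connexins are the gene families that build cell-cell junctions, and 79 of their genes, measured by 92 probes, were read from 4 mouse arrays that held 55681 probes in all, which gave 47866 genes and other features. The members were taken by name from the array's gene column: every gene named as a claudin (Cldn), a numbered cadherin (Cdh) other than Cdh5, a plakophilin (Pkp), a desmoglein (Dsg), a desmocollin (Dsc) or a connexin (Gja to Gje). That gave 23 cadherins, 23 claudins, 20 connexins, 6 desmogleins, 4 plakophilins and 3 desmocollins. The RNA came from male FVB mice aged 4 weeks, whose subcutaneous adipocyte progenitors (cells that give rise to fat cells) were sorted by FACS and lysed uncultured and untreated. One group was wild-type (2 samples) and the other Adamts1 transgenic (2 samples). Adamts1 encodes a secreted metalloprotease of the extracellular matrix. Which promoter drives the transgene, which cells carry it, which antibodies served the sort and how many mice went into a sample are not in the labels, so a p-value here covers only how far these samples spread, which may be technical.

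Cadherins are calcium-dependent adhesion proteins that bind their like on the neighbouring cell and are tied to actin by catenins. Desmogleins and desmocollins are the cadherins of the desmosome, where plakophilins, plakoglobin and desmoplakin tie them to intermediate filaments. Claudins form the strands of tight junctions, and connexins form gap junction channels between cells. Epithelia carry all of these junctions, whereas fibroblast-like cells such as adipocyte progenitors are known mainly for cadherin adhesion and gap junctions.

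Signals are given as normalised log2 signals, that is the log2 of the scanner's processed intensity minus the 75th percentile of the same array, so that 0 is that percentile. A probe was counted as measured where the scanner software marked it well above background, and such marks covered 47% and 55.5% of spots in the wild-type group and 57% and 56% in the transgenic group. Because probes differ in their yield, signals are compared between arrays and never between genes. The adipocyte progenitor markers chosen to check the label, among them Pdgfra, Cd34, Ly6a and Dcn, were well above background on all 4 arrays for 11 of 11 genes. Cd24a and Pi16 of these were called lower in the transgenic samples. Of the 11 differences 9 were negative and 2 positive, with a median of -0.33. Their summed level was 4570 and 3740 times the 75th percentile in wild-type and 3100 and 3060 in transgenic samples. No difference was called for Adamts1 itself (0.11 ± 0.09 SE on the log2 scale, limma adjusted p = 0.573), and whether its probe lies in the transgene is not given in the labels. With 2 arrays per group the smallest 2-sided p of an exact permutation test is 0.333, so all tests come from the limma fit over every feature.

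By the brightest probe of each gene, 38 of the 79 members were well above background on at least 1 array and 41 on none. The numbers were 23 and 33 on the wild-type and 32 and 33 on the transgenic arrays, and 22 members were measured on all 4 arrays. The desmosomal cadherins were not seen at all: none of the 6 desmogleins and none of the 3 desmocollins exceeded background on any array. The epithelial cadherins Cdh1 (E-cadherin) and Cdh3 (P-cadherin) were likewise not well above background on any array, nor were 12 of the 23 claudins, Cldn1 and Cldn18 among them, by the brightest probe of each gene. Cldn4 is counted with these 12, although its other probe was well above background on transgenic array 2 (-3.02). Of the cadherins 13 were seen on some array and 7 on all, of the claudins 11 and 7, of the connexins 11 and 5, and of the plakophilins 3 of 4 were seen, each on all 4 arrays.

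**Figure D1:**
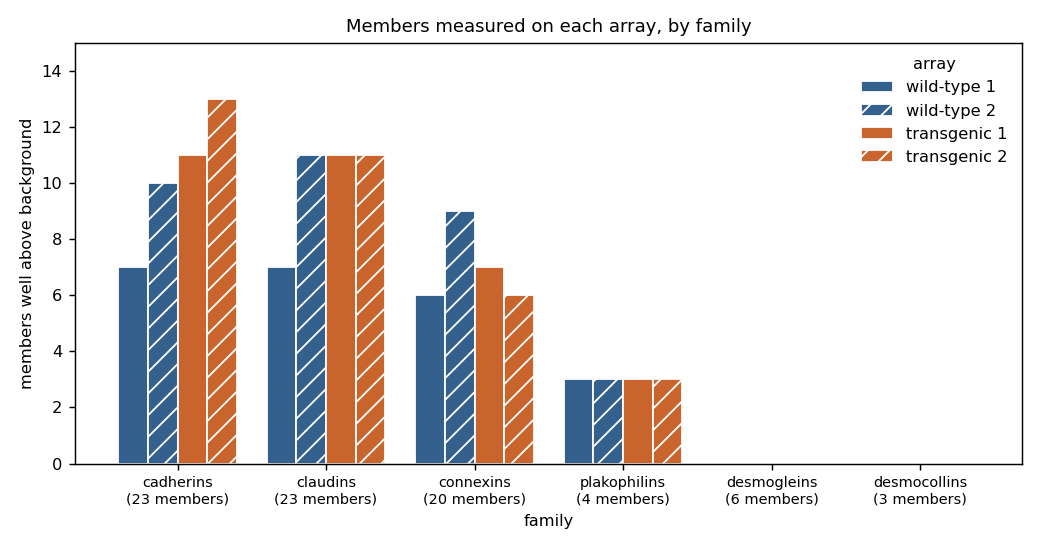
Bars give the number of members of each family (x axis) whose brightest probe was well above background on each of the 4 arrays (y axis, number of genes). Desmogleins and desmocollins are at 0 throughout, plakophilins at 3 on every array, and claudins at 7 on wild-type array 1 and 11 on the other 3 arrays.

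A member entered the comparison if its brightest probe was well above background on both arrays of at least 1 group, which 31 of 79 did: 11 cadherins, 11 claudins, 6 connexins and 3 plakophilins. Of these 31, 22 were measured on both arrays of each group, and 9 passed by their transgenic arrays only, a route that favours a positive difference. The other 48 were not tested. Of the 31, 4 were called at an adjusted p under 0.05 (12.9%, against 1.73% of all 24518 features), Cdh11 and Cldn15 higher and Pkp2 and Cldn3 lower in the transgenic samples. Higher calls made up 0.967% and lower calls 0.759% of all features. All of these calls were on probes measured on all 4 arrays, where the share of members called was 4 of 22, against 1.77% of 20162 features. The arrays of the groups did not overlap for 18 of the 31 members (58.1%), which is near the 53.1% of all features. An unadjusted p under 0.05 was reached by 14 members (45.2%, against 19% of all features). The median log2 difference of the 31 members was -0.09, against -0.02 for all features, with 12 positive and 19 negative differences. Without 1 array the members called numbered 7 (wild-type array 1 left out), 10 (wild-type array 2), 2 (transgenic array 1) or 1 (transgenic array 2), while 4.96%, 15.7%, 0.352% and 0.437% of all features were called in the same fits. None of the 4 calls was made when the variance was modelled without an intensity trend, a setting in which limma called 0 of the 24518 features although 4124 had an unadjusted p under 0.05. In a sample of sorted cells, fewer cells of a type and less RNA per cell cannot be told apart.

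**Figure D2:**
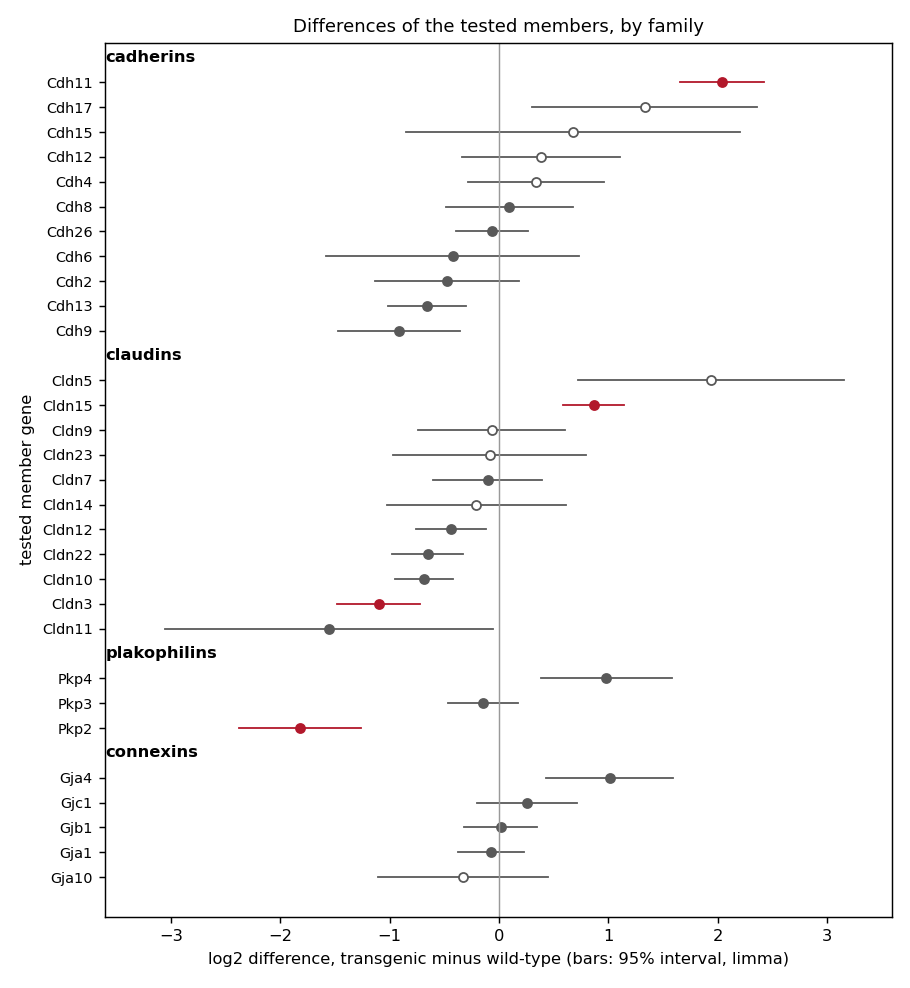
Points give the log2 difference (transgenic minus wild-type) of the tested members described in the text, with the 95% interval from limma as bars, ordered within each family. Red marks the 4 called members, and open points mark the 9 of the tested members that cleared background on at most 1 wild-type array, whose intervals are mostly wide.

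Among the cadherins 1 of 11 tested genes rose and none fell (9.09% called, against 1.73% of all features). Cdh11, the cadherin of osteoblasts and other mesenchymal cells, read -1.56 and -1.35 in wild-type and 0.67 and 0.50 in transgenic samples. The groups stood well apart, and the log2 difference was 2.04 ± 0.15 SE (4.11-fold, 95% interval 3.15 to 5.37, n = 2 per group, limma adjusted p = 0.0186). Its probe lies at chr8:105157473-105157532 on the minus strand of mm9. A second probe, listed at chr8:105156895-105156927 and measured on all 4 arrays, gave -1.90 and -2.64 in wild-type and -1.42 and -1.58 in transgenic samples, a smaller difference of 0.77 in the same direction. With both probes averaged the difference was 1.41 (adjusted p = 0.0385). Cdh11 kept its call without any 1 of the 4 arrays, with adjusted p from 0.0050 to 0.0475. In the same samples the smooth muscle and pericyte marker Acta2 rose by 2.62 and Kcnj8 fell by 1.38. Rgs5 was called higher, but was not well above background in wild-type. With its wild-type signals set no lower than the lowest signal well above background on their arrays, Rgs5 was 4.91-fold higher. Tagln, Myh11, Cspg4 and Des had differences of 0.94, 0.86, 0.39 and -0.33, none of them called. The summed level of that list of 8 was 3.49 to 4.12 times the 75th percentile in wild-type and 6.33 to 7.29 in transgenic samples, Cnn1 alone of the 8 being seen on no more than 1 array, and its part in the rise of Cdh11 was not tested.

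The other measured cadherins did not pass the test. Cdh13 (T-cadherin, a membrane-anchored receptor for adiponectin) read 2.47 and 2.64 in wild-type against 2.06 and 1.73 in transgenic samples, with a difference of -0.66 ± 0.14 (adjusted p = 0.0995). Cdh9, a classical cadherin best known from neurons and kidney, read -0.78 and -1.11 against -1.67 and -2.05 (-0.92 ± 0.22, adjusted p = 0.125). In both genes the wild-type arrays lay above the transgenic ones without overlap, while 53.1% of all features had no overlap in either direction. Cdh2 (N-cadherin) read 0.19 and -0.53 against -0.54 and -0.74, where wild-type array 2 lay next to the transgenic arrays, and the 95% interval of its transgenic to wild-type ratio was 0.457 to 1.14. Without wild-type array 2 it was called lower (-0.83, adjusted p = 0.0444). The second Cdh2 probe gave -0.40 beside -0.47. Cdh17, the cadherin of intestine and liver, was measured on the transgenic arrays alone. It was 1.12-fold higher there with each wild-type signal set no lower than the lowest signal well above background on its array. The limma fit, on the signals as read, gave Cdh17 a 95% interval of 1.23 to 5.15-fold (adjusted p = 0.182). With normexp background correction and other settings its log2 difference ranged from 0.0019 to 1.76. Cdh15 (M-cadherin of muscle satellite cells) had a 95% interval of 0.556 to 4.60 for its ratio, and was called higher without wild-type array 2 (1.52, adjusted p = 0.0471). Of 7 muscle genes Pax7, Myf5, Myod1, Ckm and Myh1 were not well above background on any array. Acta1, measured on wild-type array 2 and both transgenic arrays, had a difference of 0.64. Des, measured on all 4 arrays, had -0.33, and neither was called. The part of muscle cells in the Cdh15 difference was not tested. Cdh26 and Cdh8 had ratios of 0.957 (95% interval 0.761 to 1.20) and 1.07 (0.714 to 1.60). Cdh4, Cdh6 and Cdh12 had differences of 0.34, -0.42 and 0.39, none of them called.

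Claudins held 1 gene that rose and 1 that fell among 11 tested (18.2% called, against 1.73% of all features). Their differences were 9 negative and 2 positive with a median of -0.21, and 4 of the 11 had passed the filter by their transgenic arrays only. Cldn15, which forms cation channels between intestinal epithelial cells, read 0.54 and 0.72 in wild-type and 1.48 and 1.52 in transgenic samples, with no overlap. It rose by 0.87 ± 0.11 SE (1.82-fold, 95% interval 0.59 to 1.15 on the log2 scale, n = 2 per group, adjusted p = 0.0406). The call was lost without transgenic array 1 (adjusted p = 0.134), without transgenic array 2 (0.137) and with a median shift in place of the 75th percentile (0.0840). Cldn3, a barrier-forming claudin of epithelia, read 2.20 and 2.36 against 1.36 and 0.996, again without overlap. It fell by 1.10 ± 0.15 SE (ratio 0.466, 95% interval 0.358 to 0.607, n = 2 per group, adjusted p = 0.0443). Cldn3 in turn lost its call without wild-type array 1 (adjusted p = 0.05, at the threshold), without transgenic array 2 (0.0910), with quantile normalization (0.0659) and with normexp correction and quantile normalization together (0.0606). The probes lie at chr5:137451465-137451524 for Cldn15 and chr5:135463284-135463342 for Cldn3, both on the plus strand of mm9.

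The 250 bases before the RefSeq start site of both called claudins are shown because they moved in opposite directions, and because Snai2, a repressor that binds the E-box letters CACCTG or, on the other strand, CAGGTG, rose in the same samples. Capitals mark that E-box, 5′ to 3′ on the plus strand of GRCm38.p6; neither stretch before the start holds it. Cldn15 lies at chr5:136967619-136967868 and Cldn3 at chr5:134985964-134986213, and the third stretch, at chr5:134986233-134986262, is the 30 bases around the match found after the Cldn3 start.
Cldn15 before the start: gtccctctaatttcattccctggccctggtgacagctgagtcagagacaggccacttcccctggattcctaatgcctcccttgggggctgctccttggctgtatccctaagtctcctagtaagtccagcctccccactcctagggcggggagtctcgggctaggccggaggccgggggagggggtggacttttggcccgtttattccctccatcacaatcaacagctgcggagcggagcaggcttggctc
Cldn3 before the start: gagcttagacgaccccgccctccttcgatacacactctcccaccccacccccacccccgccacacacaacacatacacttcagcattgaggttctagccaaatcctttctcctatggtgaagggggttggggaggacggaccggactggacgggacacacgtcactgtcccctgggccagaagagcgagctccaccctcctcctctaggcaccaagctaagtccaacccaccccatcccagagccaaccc
Cldn3 after the start: caaagccacaggCAGGTGcaggggcagtct
The Cldn3 match is at bases 32 to 37 after the start. Over windows of 300 bases (250 before and 50 after the start), the letters were in 20.2% of all 32851 windows, and in 14 of the 60 windows of the 45 members that matched the RefSeq table. Of 20 tested members with a window, 5 held the letters: Cldn3, Cldn7, Cldn14, Gjb1 and Pkp4. Of these Cldn3 alone was called, and Pkp4 had a difference of 0.98. A match of letters is a description and not a binding site, and a part of Snai2 in the fall of Cldn3 was not tested.

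Several other claudins differed without passing the test over all features. Cldn10, whose forms make ion-selective paracellular channels, read 2.47 and 2.57 in wild-type against 1.75 and 1.92 in transgenic samples (-0.68 ± 0.10, adjusted p = 0.0513). Without wild-type array 1 it was called (adjusted p = 0.0494), as it was without wild-type array 2 (0.0397). Cldn22 read -0.05 and -0.09 against -0.69 and -0.75 (-0.65 ± 0.13, adjusted p = 0.0824), and Cldn12, found in many tissues, had a difference of -0.44 (adjusted p = 0.163). All 3 had both wild-type arrays above both transgenic ones, while the groups did not overlap, in either direction, for 53.1% of all features. Cldn11, the claudin of myelin and testis, read -2.17 on wild-type array 1 but -3.90 on wild-type array 2, against -4.50 and -4.68 in the transgenic samples. Its difference of -1.55 therefore rested on wild-type array 1 for much of its size, and its ratio had an interval of 0.121 to 0.966. Without wild-type array 2 Cldn11 was called (-2.42, adjusted p = 0.0117).

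Cldn5, the main claudin of endothelial tight junctions, went the other way. It read -4.17 on wild-type array 1, where it was not well above background, and -2.73 on wild-type array 2, against -1.52 and -1.49 in the transgenic samples. With its wild-type array 1 signal set no lower than the lowest signal well above background there, Cldn5 was 3.16-fold higher in transgenic samples. In the limma fit, on the signals as read, Cldn5 had an interval of 1.65 to 8.94-fold (adjusted p = 0.132). With normexp correction it was called at a smaller difference of 0.80 (adjusted p = 0.0495), and without wild-type array 1 at 1.22 (0.0446) and without wild-type array 2 at 2.66 (0.0057). Cdh5 (VE-cadherin of endothelium, outside the set by its rule) was similar, with -5.53 and -4.47 against -2.55 and -2.54 (limma adjusted p = 0.0639). With its wild-type array 1 signal set in the same way, Cdh5 was 2.81-fold higher in the transgenic samples. Its log2 difference was 2.46 as processed here and 0.44 with normexp correction. Of 10 endothelial markers 9 were tested and none was called. An unadjusted limma p under 0.05 was reached by 6 of the 9 (66.7%, against 19% of all features). Among the 9, 4 had passed the filter by their transgenic arrays only, Cdh5 being 1 of them. Of the 5 measured on all arrays, Vwf, Esam and Pecam1 had differences of 2.20, 0.90 and 0.74, and Kdr and Tek of -0.28 and -0.51. Sox17, Emcn and Tie1, which passed by their transgenic arrays only, had differences of 1.97, 1.74 and 0.93. In all, 7 of the 9 differences were positive and 2 negative. The summed level of the list, most of it from the Kdr and Tek probes, was 17.6 to 22.4 in wild-type and 16.1 to 17.0 in transgenic samples. Erg was seen on no array. The part of endothelial RNA in the Cldn5 difference was not tested. Cldn7, Cldn9, Cldn14 and Cldn23 had differences between -0.21 and -0.07, and their groups overlapped.

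**Figure D3:**
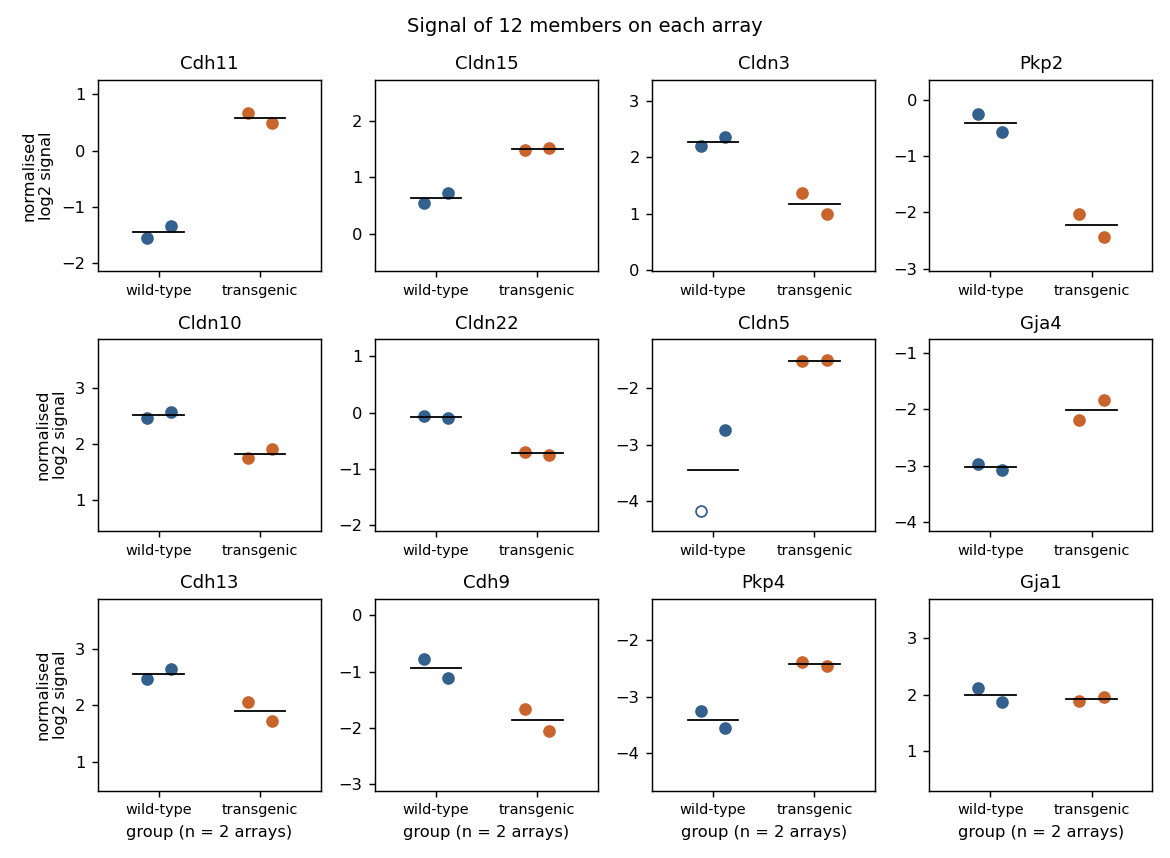
Normalised log2 signal of 12 members on each array, with points for arrays, horizontal lines for group means of 2 arrays and open points for signals not well above background. All panels span the same range of log2 units around their own centre, and the groups are apart in every panel shown except Gja1. The 12 were picked for display. The groups did not overlap for 58.1% of the 31 tested members and 53.1% of all features.

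Plakophilins were the family of the desmosome that was measured. Pkp2, the armadillo-repeat protein of cardiac and other simple desmosomes, fell 3.52-fold. It read -0.25 and -0.57 in wild-type and -2.02 and -2.43 in transgenic samples, a gap wider than the spread within either group (-1.82 ± 0.22 SE, 95% interval 2.39 to 5.18-fold, n = 2 per group, adjusted p = 0.0363). Its probe is at chr16:16272648-16272707 on the plus strand of mm9. The call was lost without transgenic array 1 (adjusted p = 0.0551) or transgenic array 2 (0.0751), whereas normexp plus quantile normalization gave a difference of -1.19 that was still called. Pkp4, which is also found at adherens junctions, read -3.26 and -3.55 against -2.39 and -2.46 (0.98 ± 0.24, adjusted p = 0.126). With normexp correction its difference was 0.22, and with normexp plus quantile normalization 0.37. Pkp3 read 3.91 and 3.59 against 3.58 and 3.62, with overlapping groups and an interval of 0.725 to 1.13 for its ratio. Pkp1, of the epidermis, was seen on no array.

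Of the epithelial markers, Krt19 fell by 0.74 ± 0.10 (adjusted p = 0.0442), in the same direction as Pkp2 and Cldn3. Epcam, Krt8, Krt18 and Grhl2 were not well above background on any array, Krt5 was seen on 1 array of each group, and Trp63, Krt14 and Esrp1 had differences of -0.15, 0.25 and 0.03, none of them called. The summed level of the 9 epithelial markers was 8.97 to 10.4 in wild-type and 7.35 to 7.90 in transgenic samples. Of the 6 mesothelial markers, which include Krt19, Msln, Upk3b, Upk1b and Lrrn4 were on no array well above background and Wt1 had a difference of -0.36 (adjusted p = 0.621). Their sum, 3.75 to 4.00 against 2.30 to 2.40, was almost wholly the signal of the Krt19 probe and so repeats its fall. The part of either cell type in the falls of Pkp2 and Cldn3 was not tested. Of 7 mammary gland markers 5, Wap, Csn2 and Elf5 among them, were not seen on any array.

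Of the 6 tested connexins none was called. Gja1, the widespread connexin of fibroblasts and heart, read 2.13 and 1.87 in wild-type and 1.90 and 1.96 in transgenic samples. Its groups overlapped, and the ratio of 0.953 had an interval of 0.773 to 1.18, so a change beyond that range was not seen. Gja4, a connexin of arterial endothelium, read -2.96 and -3.08 against -2.19 and -1.83 and had a difference of 1.01 ± 0.23 (2.02-fold, adjusted p = 0.113), or 0.37 at its lowest over the alternative settings. Gjc1, of smooth muscle and the conduction system, and Gjb1, of liver and Schwann cells, had ratios of 1.19 (0.871 to 1.64) and 1.01 (0.803 to 1.28). Gja10 had a difference of -0.33 (adjusted p = 0.603) and was measured on 1 wild-type array. Of 7 Schwann cell markers 4 were tested, Mbp fell by 0.63 (adjusted p = 0.0499), Erbb3 was on no array well above background, and the summed level was 7.63 to 8.53 in wild-type and 8.09 to 8.34 in transgenic samples.

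Members seen on 1 array only were mostly connexins. Gjb2, the connexin of the inner ear and skin, read -0.33 on wild-type array 1 and between -7.00 and -6.95 on the other 3 arrays. Gja6 read -3.34 on wild-type array 2 and -5.55 or lower on the other arrays. Cdh29 read -2.02 and Cdh18 -3.67 on transgenic array 2 alone. Gja5, an arterial connexin, was above background on transgenic array 1 (-4.75). None of these genes was tested with all arrays, and the high array differed from gene to gene. With wild-type array 1 left out, Gja6 was tested on wild-type array 2 alone and called lower, and with wild-type array 2 left out the same held for Gjb2 on wild-type array 1.

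Genes that work with these families were taken from fixed lists. Of 17 adherens junction partners 14 were tested and none was called, and the core catenins Ctnnb1, Ctnnd1 and Ctnna1 had differences of 0.04, 0.04 and -0.18. Besides Cdh5, the partner with the smallest p was the adhesion protein Nectin1 (-0.42 ± 0.09, adjusted p = 0.103). Of 9 desmosome linkers and filament genes 6 were tested and none was called: periplakin (Ppl) had -0.71 (adjusted p = 0.0788), plakoglobin (Jup) 0.57 (adjusted p = 0.455), and desmoplakin (Dsp) was well above background on wild-type array 2 alone. Jup had 0.01 with normexp correction and 0.06 without wild-type array 1, and was called at 1.08 without wild-type array 2 (adjusted p = 0.0431). Ppl was called without wild-type array 1 (adjusted p = 0.0320) and without wild-type array 2 (0.0442). Unadjusted limma p values under 0.05 numbered 7 of the 14 (50%) and 1 of the 6 (16.7%), against 19% of all features.

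Of 24 tight junction partners 15 were tested, 1 rose and 1 fell (13.3% called, against 1.73% of all features). An unadjusted limma p under 0.05 was reached by 8 of the 15 (53.3%, against 19% of all features). F11r (junctional adhesion molecule A) read -1.33 and -1.12 in wild-type against 0.55 and 0.51 in transgenic samples, and rose by 1.76 ± 0.14 (3.38-fold, adjusted p = 0.0205). The scaffold gene Mpdz read 1.23 and 1.29 against 0.55 and 0.44 and fell by 0.77 ± 0.11 (adjusted p = 0.0456). Scaffold genes Tjp1 and Pard3 had differences of 0.03 and -0.06, and occludin (Ocln), Marveld2, Tjp3 and Cgn were on no array well above background. The only tested gene of 3 pannexins, Panx1, had a difference of 0.04. Both calls were lost without transgenic array 1 (adjusted p = 0.0598 for F11r and 0.141 for Mpdz) and without transgenic array 2 (0.0513 and 0.176). The call of Mpdz was also lost with quantile normalization (0.0604), normexp with quantile normalization (0.0599) and a median shift (0.0688). F11r is also made by leukocytes and platelets. Of 8 macrophage and leukocyte markers Cd74 rose by 3.21, and Ptprc, measured on 1 wild-type array, was called higher. With its other wild-type signal set no lower than the lowest signal well above background there, Ptprc was 2.72-fold higher. Adgre1 and Csf1r had differences of 1.45 and 0.44, Cd3e of -1.01, and Itgam, Cd68 and Cd79a of -0.07, 0.16 and 0.36, none of them called. The list's summed level, most of it from the Itgam probe, was 61.9 to 66.3 in wild-type and 61.5 to 63.8 in transgenic samples. Their part in the rise of F11r was not tested.

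Among 22 other members of the cadherin superfamily, 18 were tested, 1 rose and 1 fell (11.1% called, against 1.73% of all features). Of the 18, 3 had passed the filter by their transgenic arrays only, a route that favours a positive difference. The gene that rose was 1 of these 3. An unadjusted limma p under 0.05 was reached by 7 of the 18 (38.9%, against 19% of all features). Protocadherin 12 (Pcdh12), known from endothelium, was above background on wild-type array 2 and both transgenic arrays, with readings of -4.28 and -4.27 against -1.78 and -1.66. It was called higher in the transgenic samples (adjusted p = 0.0227). With the wild-type array 1 signal set no lower than the lowest signal well above background there, Pcdh12 was 4.65-fold higher. With normexp correction and other settings its log2 difference was as low as 0.92. Protocadherin 20 (Pcdh20) read 3.74 and 3.64 against 3.02 and 2.95 and fell by 0.70 ± 0.09 (adjusted p = 0.0368). The giant cadherin Fat1 and its relative Dchs1 had differences of -0.23 and -0.61 and were not called. Both calls were lost without either transgenic array, with adjusted p from 0.0917 to 0.148.

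Of 7 transcription factors known to repress Cdh1, 6 were tested and 1 was called (16.7%, against 1.73% of all features). An unadjusted limma p under 0.05 was reached by 4 of the 6 (66.7%, against 19% of all features). Snai2 (Slug) read 0.67 and 0.86 in wild-type against 1.73 and 1.87 in transgenic samples and rose by 1.04 ± 0.12 (2.05-fold, adjusted p = 0.0308). Snai1 had 0.72 ± 0.13 (adjusted p = 0.0719), while Zeb1, Zeb2, Twist1 and Twist2 lay between -0.29 and 0.30. The call of Snai2 was lost without transgenic array 1 (adjusted p = 0.0804), without transgenic array 2 (0.0951) and with a median shift (0.0641). Cdh1 was on no array well above background, so its level could not be compared between the groups.

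**Figure D4:**
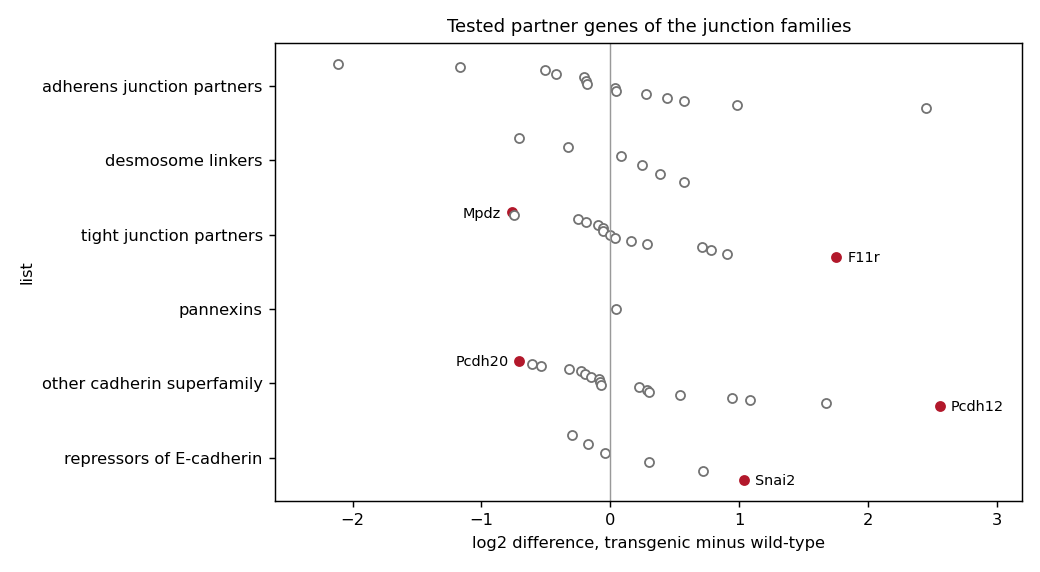
Log2 difference (transgenic minus wild-type) of each tested gene of the 6 partner lists, 1 point per gene, ordered within its list, with the called genes in red and named. F11r, Pcdh12 and Snai2 are called higher and Mpdz and Pcdh20 lower, and no gene of the adherens junction, desmosome or pannexin lists is called.

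Of 7 mature adipocyte markers 5 were tested and none was called. Plin1, Adipoq and Cfd, measured on all 4 arrays, had differences of 2.30, 1.57 and 2.25 (adjusted p from 0.0591 to 0.0788), and Retn and Lipe, which passed by their transgenic arrays only, of 1.17 and 0.65. Cidec read -0.72 on wild-type array 1 and was not well above background on the other arrays, and Lep was seen on no array. The summed level was 0.975 to 1.36 in wild-type and 2.50 to 3.24 in transgenic samples, and the part of these cells in the differences of the junction genes was not tested.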

How the data were processed

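Total RNA of 4 sorted samples was labelled with Cy3 and hybridised to 1-colour Agilent arrays of the mouse, per the labels' protocols. The authors deposited a processed intensity per spot, made by Agilent Feature Extraction 10.7.3.1 on design 028005 with probe coordinates on mm9: background-subtracted, detrended, with surrogate values for spots at background, per the file headers. The log2 value table that the authors deposited matched these intensities once they were shifted to the 75th percentile and probes were centred (correlations 0.9998 to 1; column medians 0.195, -0.0209, -0.0455 and 0.0192); how it was made is not stated in the labels. All 4 arrays shared 1 slide and 1 scan.

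Control and outlier spots were left out, spots of a probe averaged on the log2 scale, and each array's 75th percentile subtracted. Names were updated through unversioned RefSeq accessions (GRCm38.p6 table, names alone), and 45 of 79 members matched its promoter windows. Each gene entered by its brightest probe. The transgenic group was tested against the wild-type with limma 3.58.1, run in R 4.3.3 (lmFit, eBayes with an intensity trend, residual degrees of freedom 2, prior 3.34, 2-sided, Benjamini-Hochberg over 24518 features), and intervals are 95%. Levels summed over a list are in units of the 75th percentile. The fit was tested on simulated data. Members, lists and tests were chosen with earlier results of these data known. The text names the called members, the 4 members per family with the smallest p, members seen in 1 group only, Pkp2 and Cdh5 (known from earlier results), and per partner list the called genes and the 2 smallest p; other genes named were chosen after their values were seen. Alternatives covered background correction, normalization, filter, variance model, probe rule, value table, replicate block and each array left out. Some genes are not reported here.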

Additional observations from a re-analysis of the deposited data

How the results depend on the processing

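With all 4 arrays, the count of 4 called members stayed between 3 and 5 in 9 of 10 alternative settings, and was 0 without an intensity trend, where 0 features were called (4124 at an unadjusted p under 0.05, 13 of them members) and 0 members higher and 0 lower. Members called lower numbered 1 with quantile normalization and 1 with normexp correction and quantile normalization, and members called higher 1 with a median shift. Without a filter on dim probes 695 features were called and the median over all 79 members was -0.52, most of them at background. Deviations of same-numbered samples from their group means had a correlation of 0.0032, which with 2 arrays per group cannot show whether samples were paired. With the replicate block 774 features and 5 members were called, against 423 and 4. Leaving out 1 array each, called features ranged from 90 to 3998, called members from 1 to 10, those higher from 1 to 4, those lower from 0 to 6 and the median from -0.22 to -0.0378; the residual variance then comes from the intact pair alone, the lone array being assumed to vary like the other group. Of 345 comparisons for 25 named genes, 296 kept direction and call, 32 lost and 15 gained a call, and 2 uncalled genes changed sign: leaving out 1 array each, Pkp3 ranged from -0.31 to 0.0146 (sign turned without wild-type array 1) and Panx1 from -0.19 to 0.28 (transgenic array 2). The causes were not tested. Signal over background limits what 41 unseen members can show.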
